A study of Arabidopsis thaliana with 4 samples.

Results

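Transcripts of 10 nuclear genes that serve carbon fixation in the chloroplast were followed in whole Arabidopsis thaliana seedlings, wild type against lux-6. They were found by their AGI identifiers, and all 10 were present among the 33602 gene IDs measured. They comprise the Rubisco small subunit genes RBCS1A (AT1G67090), RBCS1B (AT5G38430), RBCS2B (AT5G38420) and RBCS3B (AT5G38410), the Rubisco activase gene RCA (AT2G39730), the phosphoribulokinase gene PRK (AT1G32060), the chloroplast glyceraldehyde-3-phosphate dehydrogenase genes GAPA1 (AT3G26650), GAPA2 (AT1G12900) and GAPB (AT1G42970), and the sedoheptulose-bisphosphatase gene SBPASE (AT3G55800). The study compared 2 RNA-seq libraries of wild-type Col-0 with 2 of lux-6, a lux -/- mutant in the Col-0 ecotype whose lesion the labels do not describe. Every seedling was 10 d old, raised on MS medium with 3% sucrose under long days at 22 °C, and collected at ZT12, that is 12 h after dawn. LUX encodes a DNA-binding subunit of the evening complex, which represses its targets around dusk. How many seedlings went into a library is not given. In libraries of whole seedlings, fewer green cells and less transcript per green cell cannot be told apart.

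Rubisco joins carbon dioxide to ribulose-1,5-bisphosphate. Its large subunit is encoded by the plastid gene RBCL and its small subunit by the nuclear RBCS family, whose products are imported into the chloroplast. Activase removes inhibitory sugar phosphates from the catalytic sites. The remaining enzymes of the Calvin cycle reduce the product to triose phosphate (the GAPDH step) and rebuild the acceptor (the SBPASE and PRK steps). Transcription of RBCS genes is known to depend on light, on sugars and on the clock.

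The 3 RBCS genes of chromosome 5 lie side by side and are close copies, which bears on how far their values can be separated. In the RefSeq annotation of TAIR10.1, RBCS3B is at chr5:15376988-15378642, RBCS2B at chr5:15380907-15382071 and RBCS1B at chr5:15383167-15385320, all on the minus strand, and RBCS1A is at chr1:25048158-25049667, also on the minus strand. The coding sequences of RBCS2B and RBCS3B differed at 17 of 546 bases, those of RBCS2B and RBCS1B at 15, and those of RBCS2B and RBCS1A at 51 of 543 aligned bases. The stretch in which RBCS2B and RBCS3B differ most, coding bases 91 to 150 counted from the A of the start codon of RBCS2B, is shown for the 4 genes to let their differences be seen. Capitals mark the 11 positions at which the 4 genes are not all alike.
RBCS1A: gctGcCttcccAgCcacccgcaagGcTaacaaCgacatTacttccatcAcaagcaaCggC
RBCS1B: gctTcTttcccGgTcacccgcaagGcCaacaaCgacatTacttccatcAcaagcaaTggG
RBCS2B: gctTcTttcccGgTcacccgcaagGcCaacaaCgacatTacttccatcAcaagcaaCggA
RBCS3B: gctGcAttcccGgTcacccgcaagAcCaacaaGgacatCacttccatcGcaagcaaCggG
In this stretch RBCS3B differed from RBCS2B at 7 bases and RBCS1B at 2.

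Over whole RefSeq transcripts the copies could be told apart along most of their length. Of all windows of 100 bases in the RefSeq transcript of RBCS2B, none occurred in another RBCS transcript, against 12.1% for RBCS3B, 18.1% for RBCS1B and none for RBCS1A. With windows of 50 bases the shares were 21.4% for RBCS2B, 18.3% for RBCS3B, 32.6% for RBCS1B and 1.48% for RBCS1A. The gene lengths worked back from the FPKM values were shorter than these transcripts. They were 861 against 935 bases for RBCS2B, 999 against 1210 for RBCS3B, 808 against 840 for RBCS1B and 1025 against 1268 for RBCS1A. Shared windows over those shorter lengths were not computed. The read length and the treatment of reads that match several genes are not stated in the labels or headers, so the values of the chromosome 5 copies are uncertain to that extent. GAPA1, GAPA2 and GAPB shared no window of either length.

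Light-response boxes stood before the start codon of every RBCS gene. The G-box (CACGTG) is bound by bZIP factors such as HY5 and by the PIF factors, and the I-box (GATAAG) in tomato by a MYB-related factor. Both were searched on either strand in the 500 bases before the start codon. A G-box was found in RBCS1A, RBCS2B, RBCS3B, RCA and SBPASE, against 9.34% of 27443 genes with such a window, and an I-box in 8 of the 10 genes, against 23.5%. RBCS1A, RBCS2B, RBCS3B and RCA held both, against 2.28% of genes. In 3 of the RBCS genes an I-box is closely followed by the G-box. The 30 bases from that I-box on are printed with both boxes in capitals, on the coding strand of TAIR10.1, at chr1:25049503-25049532 for RBCS1A, chr5:15382188-15382217 for RBCS2B and chr5:15378517-15378546 for RBCS3B. The line for RBCS1B (chr5:15385305-15385334) shows its overlapping pair of I-boxes, since no G-box was found in its window, and that for RCA (chr2:16573579-16573608) shows its G-box. The stretch of RBCS2B lies upstream of the annotated gene, that of RBCS1B across its start, and those of RBCS1A, RBCS3B and RCA within the annotated gene before the start codon.
RBCS1A: GATAAGattcatggaattatcttcCACGTG
RBCS2B: GATAAGattatggagttttctgcCACGTGa
RBCS3B: GATAAGataatggagttttctgcCACGTGg
RBCS1B: caaaagaaaGATAAGATAAGggtgtcaaca
RCA: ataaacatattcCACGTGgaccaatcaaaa
The G-box begins 259, 216 and 217 bases before the start codon in RBCS1A, RBCS2B and RBCS3B, and 251 bases before it in RCA. The letters of the LUX-binding site (GATACG or GATTCG), present in 26.1% of genes, and of the evening element (AAAATATCT), present in 4.02%, were not in the window of any of the 10 genes. These matches describe letters only, and no binding was measured.

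The 4 libraries rested on totals of 10735709 to 11198704 fragments, worked back from the values. LUX itself stood at 57.0 and 73.9 FPKM (fragments divided by gene length and by the total of the library) in the wild type and at 34.8 and 35.3 in the mutant (limma adjusted p = 0.187). Pairs of values are in the order replicate 1, replicate 2. Col-0 replicate 2 stood apart. Its log2 values correlated across genes with those of the other libraries at r = 0.863 to 0.909, against 0.955 to 0.984 among the others, and plastid transcripts made up 3.09% of its FPKM total against at most 0.0698% elsewhere. Markers of the seedling's organs were compared as counts and sums. Of the 12 root markers tested 2 lay lower in both lux-6 libraries and none higher, beside 22.8% and 26.1% of genes tested. Their median log2 fold change was 0.01, and the other root marker, NRT2.1, was listed at 0 throughout. All root markers summed to 3111 and 1562 FPKM in the wild type and to 2752 and 3136 in the mutant, mostly PYK10. Without PYK10 the sums were 182 and 139.99 against 143 and 166. Of the 9 shoot markers outside photosynthesis 5 (FIL, AS1, PDF1, GL1 and MYB60) lay lower in both lux-6 libraries, beside 22.8% of genes tested, and 4, LTP1 among them, overlapped, with a median of -0.24. They summed to 1511 and 1077 in the wild type and to 1418 and 1160 in the mutant, mostly LTP1. Without LTP1 the sums were 464 and 457 against 405 and 377, lower in both lux-6 libraries. The 10 seed markers summed to 239 and 20.4 in the wild type and to 2081 and 2193 in the mutant. All 10 lay higher in both lux-6 libraries, beside 26.1% of genes tested. Of these, 4 (SESA3, SESA4, SESA5 and CRU2) rose in the limma test over all genes, which 0.291% of genes passed, and none passed with a pseudocount of 0.1 or with all genes above 0. The part of these differences in the results below was not tested.

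The 4 small subunit genes had the most negative log2 fold changes of the 10 genes with all libraries. Without Col-0 replicate 2, RBCS2B and RBCS1B were followed by PRK at -0.33. All 4 RBCS genes, PRK, GAPA1 and GAPA2 had both mutant values under both wild-type values, RCA had both above, and GAPB and SBPASE overlapped. With median-of-ratios scaling GAPB joined the lower genes, and without organelle genes GAPA1 overlapped. The 7 lower genes compare with 22.8% of the 19592 genes tested that lay lower in this way, and the 1 higher gene with 26.1%. The median log2 fold change of the 10 genes was -0.40, beside 0.05 over all genes tested, and without Col-0 replicate 2 it was -0.18 beside -0.04. None of the 10 passed the limma test over all genes at an adjusted p of 0.05, a threshold that 0.291% of genes passed. At an unadjusted p under 0.05 there were 2, RBCS1B and RBCS2B, both lower, beside 3.1% of genes on that side and 12.3% on either. Limma-voom on fragments also called none of the 10, with RBCS2B at adjusted p = 0.116, where it called 0.488% of genes.

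RBCS1A was the most abundant transcript in every library. It stood at 10599 and 20766 FPKM in the wild type and at 8714 and 8630 in the mutant. Col-0 replicate 2 lay far above the other libraries, while Col-0 replicate 1 lay above the lux-6 pair by much less. The means were 15683 ± 7190 and 8672 ± 59.4 FPKM (SD, n = 2), with a log2 fold change of -0.77 (standard error 0.65, limma adjusted p = 0.631). Without Col-0 replicate 2 the log2 fold change was -0.29.

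RBCS2B showed the widest gap between the genotypes among the 10 genes. It stood at 3740 and 5254 FPKM in the wild type and at 1787 and 1658 in the mutant, resting on 35486, 50660, 16881 and 15323 fragments. Both Col-0 libraries were far above both lux-6 libraries, and the gap was wider than the distance between the Col-0 libraries. The means were 4497 ± 1071 and 1723 ± 91.6 FPKM (SD, n = 2), so that the lux-6 mean was 38.3% of the Col-0 mean. The log2 fold change was -1.36 (standard error 0.38), with a 95% interval from -2.36 to -0.37, and it did not pass the test (limma adjusted p = 0.285). In abundance RBCS2B ranked 5 and 3 among all genes in the wild type and 15 and 12 in the mutant.

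RBCS1B, the least abundant of the family, stood at 1458 and 1859 FPKM in the wild type and at 986 and 809 in the mutant. Again both lux-6 libraries were lower than both Col-0 libraries, and the replicates of each genotype were some way apart. The means were 1658 ± 283 and 897 ± 126 FPKM (SD, n = 2), with a log2 fold change of -0.88 (standard error 0.31, limma adjusted p = 0.365). RBCS3B stood at 4397 and 6850 FPKM in the wild type and at 3848 and 3971 in the mutant. Here the lux-6 values came close to Col-0 replicate 1. The log2 fold change of RBCS3B was -0.49 (standard error 0.46, limma adjusted p = 0.666), and -0.17 without Col-0 replicate 2.

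**Figure D1:**
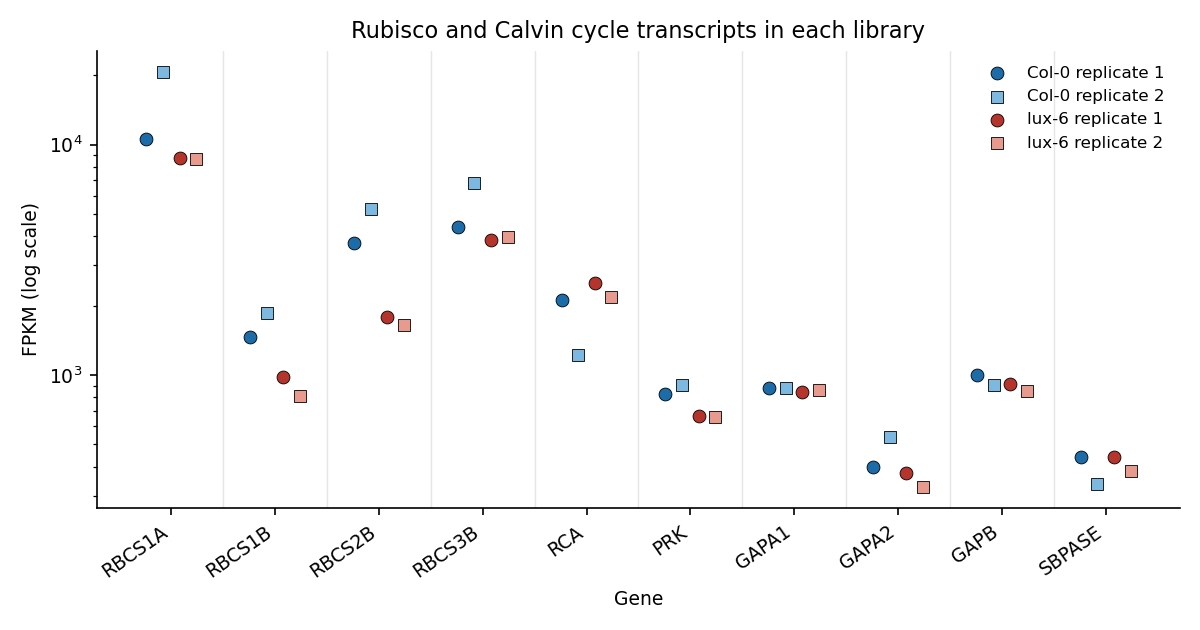
FPKM (log scale) of the 10 genes, 1 point for each library: Col-0 replicates 1 and 2 in dark and light blue, lux-6 replicates 1 and 2 in dark and light red. The lux-6 points of the 4 RBCS genes lie lower than both Col-0 points, with the widest gap for RBCS2B (3740 and 5254 against 1787 and 1658), while Col-0 replicate 2 is highest for RBCS1A (20766) and lowest for RCA (1218).

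Summed over the 4 genes, small subunit transcripts made up 1.97% and 3.42% of all fragments in the wild type and 1.51% and 1.49% in the mutant. The lux-6 libraries were nearly equal and lower than both Col-0 libraries, which differed widely. The summed value had a log2 fold change of -0.80 (standard error 0.79, limma adjusted p = 0.674). With the chromosome 5 copies alone summed, so that a read given to the wrong copy stays within the sum, it was -0.83 (standard error 0.55, limma adjusted p = 0.562). The sum over all 4 genes was added after the data were seen.

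In the makeup of the small subunit transcripts, RBCS2B held a smaller share and RBCS3B a larger one in both lux-6 libraries. A share within a library does not depend on how the library was scaled. RBCS2B made up 18.5% and 15.1% of the summed RBCS FPKM in the wild type and 11.7% and 11.0% in the mutant. RBCS3B made up 21.8% and 19.7% in the wild type and 25.1% and 26.4% in the mutant. For both genes the genotypes did not overlap, and the difference of means, -5.50 percentage points for RBCS2B and 4.98 for RBCS3B, exceeded the distance between the Col-0 libraries. The shares of a library add up to the whole, so a smaller share of RBCS2B enlarges the others. These differences are therefore not independent, and the larger share of RBCS3B is not a higher level.

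The ratio of RBCS3B to RBCS2B was 1.18 and 1.30 in the wild type and 2.15 and 2.40 in the mutant. The means were 1.24 ± 0.0906 and 2.27 ± 0.172 (SD, n = 2). Col-0 replicate 2, which stood apart for the levels, lay beside replicate 1 for this ratio. The ratio of RBCS1B to RBCS2B was likewise higher in both lux-6 libraries, at 0.552 and 0.488 against 0.390 and 0.354. That of RBCS1A to RBCS2B was 4.88 and 5.21 against 2.83 and 3.95, with the Col-0 libraries farther apart. The ratios between RBCS genes, and that of their sum to RCA given below, were not among the planned quantities. With 2 libraries in each genotype the exact permutation test, two-sided, gave p = 0.333 for each of these quantities, the smallest it can give. RBCS1A held 52.5% and 59.8% in the wild type and 56.8% and 57.3% in the mutant, and RBCS1B 7.22% and 5.35% against 6.43% and 5.37%, so that their shares overlapped between the genotypes. In these libraries the ratios describe unequal differences of the copies, which the permutation test cannot decide. They do not show that any copy was unaltered.

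**Figure D2:**
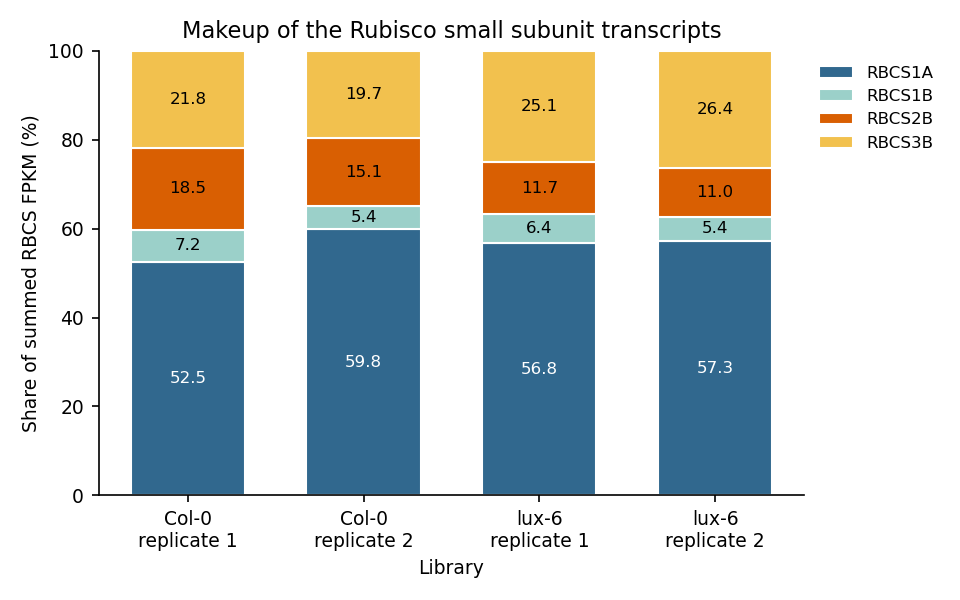
Share of each small subunit gene in the summed RBCS FPKM of a library, in percent, for the 4 libraries. The RBCS2B band is thinner in lux-6 (11.7% and 11.0%) than in Col-0 (18.5% and 15.1%) and the RBCS3B band thicker (25.1% and 26.4% against 21.8% and 19.7%).

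RCA, which encodes the activase, lay on the other side. It stood at 2121 and 1218 FPKM in the wild type and at 2509 and 2178 in the mutant. Col-0 replicate 2 was well lower than the other 3 libraries, and Col-0 replicate 1 was only just lower than lux-6 replicate 2. The means were 1670 ± 639 and 2344 ± 235 FPKM (SD, n = 2), with a log2 fold change of 0.54 (standard error 0.41, limma adjusted p = 0.596). Without Col-0 replicate 2 it was 0.14. The ratio of the summed RBCS FPKM to RCA was 9.52 and 28.5 in the wild type and 6.11 and 6.92 in the mutant, lower in both lux-6 libraries and far from equal between the Col-0 libraries (exact permutation p = 0.333).

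Of the 2 genes for rebuilding the acceptor, PRK was lower in lux-6 and SBPASE was not. PRK, whose product makes ribulose-1,5-bisphosphate, stood at 831 and 906 FPKM in the wild type and at 668 and 657 in the mutant. The replicates of both genotypes lay close together and apart from those of the other genotype. The log2 fold change of PRK was -0.39 (standard error 0.24, limma adjusted p = 0.542), and -0.33 without Col-0 replicate 2. SBPASE, whose product removes a phosphate from sedoheptulose-1,7-bisphosphate, stood at 441 and 338 FPKM in the wild type and at 440 and 383 in the mutant. The mutant values lay between the wild-type values, with a log2 fold change of 0.09 and a 95% interval from -0.54 to 0.72. The direction of SBPASE turned without Col-0 replicate 2, at -0.10.

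Of the chloroplast GAPDH subunit genes, GAPA1 and GAPB were near even and GAPA2 lay lower in lux-6. GAPA1 stood at 879 and 878 FPKM in the wild type and at 846 and 859 in the mutant, with a log2 fold change of -0.04 and a 95% interval from -0.67 to 0.59. These 4 values lay within a narrow band, with lux-6 at its lower edge. GAPB stood at 1005 and 905 FPKM in the wild type and at 920 and 852 in the mutant, and the genotypes overlapped. GAPA2, the less abundant A subunit gene, stood at 399.7 and 539.9 FPKM in the wild type and at 378 and 327 in the mutant, with a log2 fold change of -0.40 (standard error 0.25, limma adjusted p = 0.547), and -0.19 without Col-0 replicate 2. The ratio of GAPA1 to GAPA2 was 2.20 and 1.63 in the wild type and 2.24 and 2.63 in the mutant, where Col-0 replicate 1 came close to the lux-6 libraries. That of both A genes together to GAPB was 1.27 and 1.57 in the wild type and 1.33 and 1.39 in the mutant, which overlapped.

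**Figure D3:**
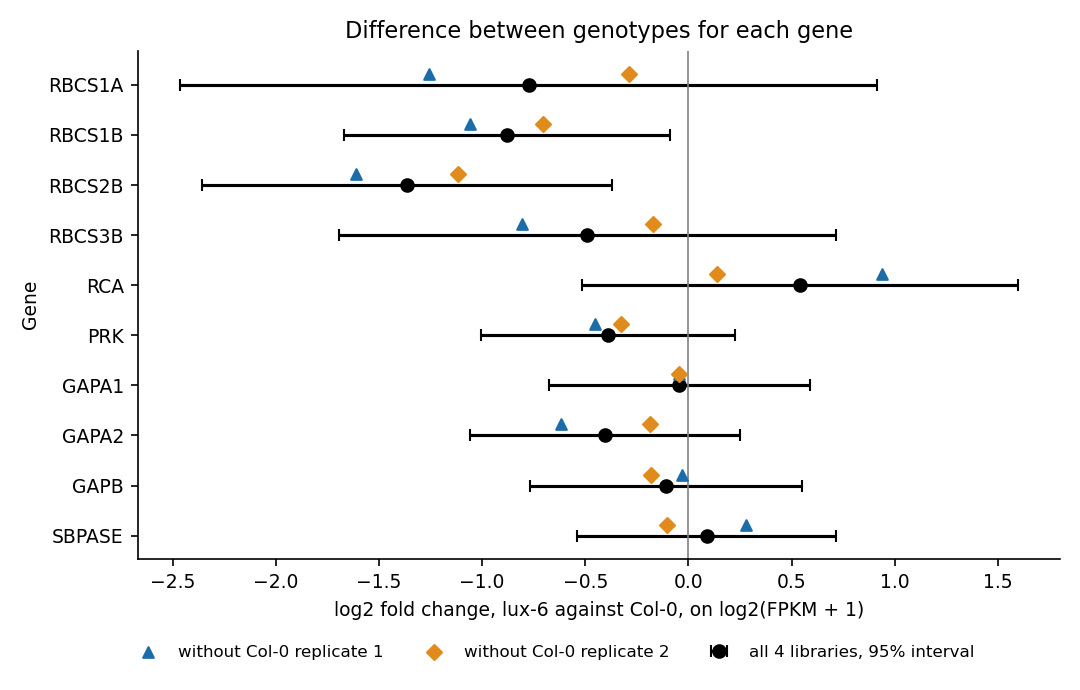
Log2 fold change of lux-6 against Col-0 on the log2(FPKM + 1) scale for each gene, with its 95% interval from limma (black), and the value without Col-0 replicate 1 (blue triangles) or replicate 2 (orange diamonds). RBCS1A moves from -1.26 to -0.29 between these, and RBCS2B from -1.61 to -1.12.

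The Col-0 library left in the comparison set the size of most differences. Without Col-0 replicate 2, RBCS2B passed the limma test (log2 fold change -1.12, adjusted p = 0.0363) and the other 9 genes did not, where 0.357% of genes passed on the lower side and 3.47% on the higher. In that comparison 9 of the 10 lay lower in both lux-6 libraries, beside 42.1% of genes. Without Col-0 replicate 1, the 4 RBCS genes, PRK and GAPA2 passed on the lower side and RCA on the higher side, beside 12.1% and 21.7% of genes. In that fit the log2 fold change was -1.61 for RBCS2B (limma adjusted p = 0.00118), -1.26 for RBCS1A (0.00701), -1.06 for RBCS1B (0.00612), -0.81 for RBCS3B (0.0167) and 0.94 for RCA (0.00809). It was -0.45 for PRK (limma adjusted p = 0.0391) and -0.62 for GAPA2 (0.0198). Both fits leave 1 Col-0 library and assume that it varies like the lux-6 pair, so their calls are not firmer than those of the fit to all libraries. In levels Col-0 replicate 2 lay farther from lux-6 than replicate 1 did for the 4 RBCS genes, RCA, PRK and GAPA2.

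Of 15 further genes of the Calvin cycle none passed the test, and 6 lay lower and 1 higher in both lux-6 libraries, beside 22.8% and 26.1% of all genes tested. The median over these 15 was -0.12 (log2 fold change). Without Col-0 replicate 2 the median was -0.18 with 11 of the 15 lower in both, beside -0.18 and 9 of 10 for the genes described so far and 42.1% of all genes. At an unadjusted p under 0.05 there were 2 lower, beside 3.1% of all genes, and 1 higher, where 12.3% of all genes passed on either side. RPI3 (AT3G04790), a ribose-5-phosphate isomerase gene, stood at 99.3 and 132.8 FPKM in the wild type and at 59.95 and 56.4 in the mutant (log2 fold change -0.97, limma adjusted p = 0.176). CP12-3 (AT1G76560), of the family of CP12 proteins that bind GAPDH and phosphoribulokinase, stood at 21.6 and 18.1 FPKM in the wild type and at 33.2 and 27.1 in the mutant. FBA2 (AT4G38970), the most abundant of the 15 and an aldolase gene, stood at 1245 and 1069 FPKM in the wild type and at 1104 and 1064 in the mutant.

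Of 12 genes for the folding and assembly of Rubisco none passed the test, and 9 were lower in both lux-6 libraries and none higher, beside 22.8% and 26.1% of all genes tested. The median over these 12 was -0.44 (log2 fold change). Without Col-0 replicate 2 it was -0.39 with 10 of the 12 lower in both, beside 42.1% of all genes. At an unadjusted p under 0.05 there were 4, all lower, beside 3.1% of all genes. The chaperonin cofactor gene CPN20 (AT5G20720), the most abundant of the 12, stood at 448 and 543 FPKM in the wild type and at 473 and 398 in the mutant, which overlapped. The plastid partner RBCL (ATCG00490) was listed at 4.85 and 8.25 FPKM in the wild type and at 19.3 and 4.33 in the mutant. As given above, the plastid share was 3.09% in Col-0 replicate 2 and at most 0.0698% elsewhere. Whether plastid RNA was recovered as fully as nuclear RNA was not tested. The RBCL values are therefore not set against those of its nuclear partners.

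Thioredoxins, their reductase and carbonic anhydrases serve the light activation of the cycle and the supply of carbon dioxide. Of 8 such genes none passed the test, 5 were lower in both lux-6 libraries, beside 22.8% of all genes tested, and TRXF1, TRXF2 and CA2 overlapped. The median log2 fold change was -0.58, or -0.31 without Col-0 replicate 2, and 2 were lower at an unadjusted p under 0.05, beside 3.1% of all genes. The thioredoxin gene TRXM1 (AT1G03680) stood at 296 and 394 FPKM in the wild type and at 217 and 203 in the mutant, and TRXM4 (AT3G15360) at 319.5 and 552 against 224 and 209.9. The carbonic anhydrase gene CA1 (AT3G01500) stood at 2315 and 4398 FPKM in the wild type and at 1923 and 1924 in the mutant.

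Among 14 genes of photorespiration, which salvages the product of oxygenation by Rubisco, none passed the test. In both lux-6 libraries 10 lay lower and 2 higher, beside 22.8% and 26.1% of all genes tested. The median log2 fold change was -0.15, or -0.14 without Col-0 replicate 2. At an unadjusted p under 0.05 there was 1, beside 12.3% of all genes on either side. This was the catalase gene CAT2 (AT4G35090), at 209 and 123 FPKM in the wild type and at 300.4 and 294 in the mutant. GLDP1 (AT4G33010), of glycine decarboxylase, stood at 567 and 614 FPKM in the wild type and at 388 and 431 in the mutant. SHM1 (AT4G37930), the most abundant, stood at 874 and 990 against 801 and 766. The copies PGLP1A (AT5G36700) and PGLP1B (AT5G36790), whose annotated transcripts share 98.8% and 98.9% of windows of 100 bases, were listed at 0.366 to 6.84 FPKM. Both are counted among the 10 lower genes, though their values are low and can hardly be separated. The 4 GAPDH genes of glycolysis all overlapped between the genotypes, with a median of -0.14, and with GAPC2 (AT1G13440) at 843 and 1038 FPKM in the wild type and at 877 and 806 in the mutant and GAPCP1 (AT1G79530) at 45.9 and 99.1 against 36.8 and 47.4. None of them had an unadjusted p under 0.05, beside 12.3% of all genes on either side.

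**Figure D4:**
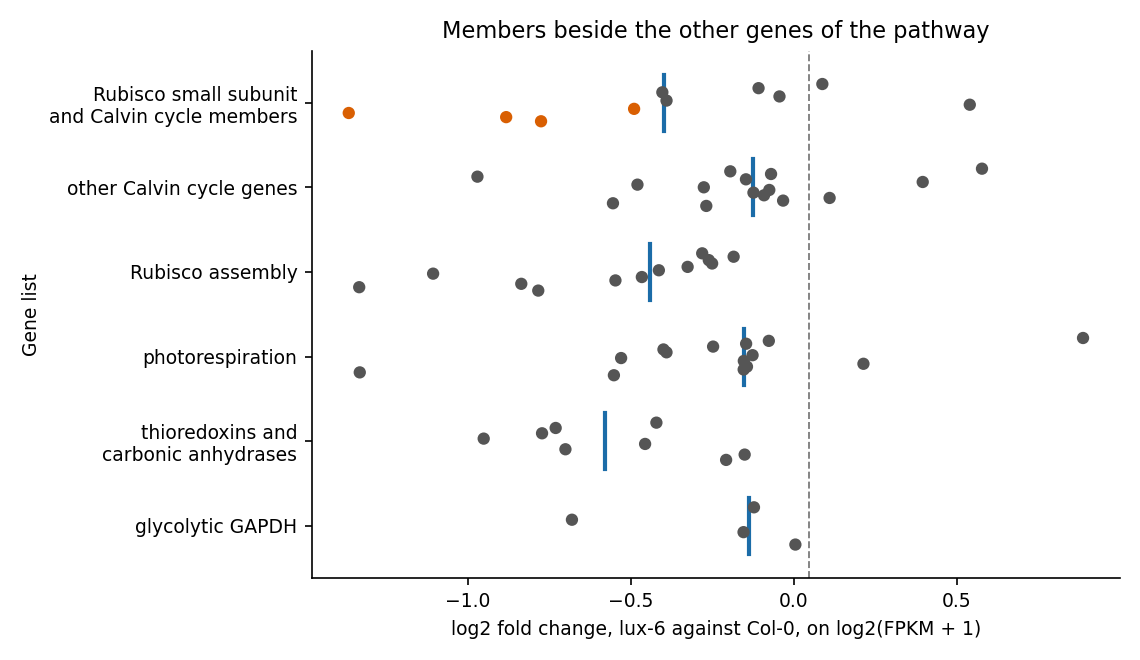
Log2 fold change of lux-6 against Col-0 for each gene of 6 lists, on the log2(FPKM + 1) scale, with RBCS genes in orange, other genes in grey, the median of each list as a blue bar and the median of all genes tested (0.05) as a dashed line. The RBCS genes lie between -1.36 and -0.49, the 15 other Calvin cycle genes have a median of -0.12 and the 12 Rubisco assembly genes one of -0.44.

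The profile over the 4 libraries that was most like that of a gene was sought among 2714 other nuclear genes averaging 50 FPKM or more, by the Euclidean distance of centred log2 values. For RBCS1A the 5 nearest were AT3G11630 (a thioredoxin superfamily protein, distance 0.0261), AT5G56710 (ribosomal protein L31e family, 0.0458), ACR11 (AT1G16880, 0.0469), AT5G60390 (an elongation factor Tu family protein, 0.0538) and CA1 (0.0560). Like RBCS1A, these were highest in Col-0 replicate 2. For RBCS2B 4 of the 5 nearest were AT3G09440 (an Hsp70 family protein, 0.0540), OEP6 (AT3G63160, 0.169), CYP706A6 (AT4G12320, 0.241) and DiT1 (AT5G12860, 0.280), each with log2 fold changes from -1.46 to -1.13. AT3G09440 stood at 137 and 193 FPKM in the wild type and at 64.2 and 62.5 in the mutant. With only 4 libraries many genes can resemble each other in this way, and the distances are given as a description.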

How the data were processed

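Each deposited file holds 1 library in FPKM, as its header says, made by the authors. TopHat2 2.0.12 and TAIR10 are named in the submitters' processing notes without a role, and the counter, the gene lengths, the filters and the strand setting are not stated there. NEBNext Ultra libraries were built from DNase-treated total RNA, per the labels' protocols.

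Log2(FPKM + 1) was fitted with limma 3.58.1 in R 4.3.3, with a mean-variance trend and a genotype term, for the 19592 genes whose mean reached 1 FPKM. P-values were two-sided and adjusted over these genes by Benjamini-Hochberg, with calls at 0.05. The scale understates changes of low genes. Residual degrees of freedom were 2 and prior ones 2.88. The series calls its replicates biological and does not say what separated them. The fit was tested on simulated data, but the outcome is not given here, so no support for the fit is drawn from it.

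Fragments were worked back as FPKM times a whole gene length and library total, searching lengths from 0.5 times the shortest transcript to 1.2 times the exon union. They came out whole within 0.002 for 82.9% of 24532 genes above 0, including 8 of the 10 genes but neither RCA nor GAPA2. Other genes used the annotated length. Intervals cover the spread between libraries only.

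Sequences are from RefSeq TAIR10.1, a later release than the named TAIR10, with 1 transcript a gene (the lowest accession number). The 10 genes, the lists and the tests were chosen with earlier results of these data known. Named in the text are the 10 genes, LUX, RBCL and, of each other pathway list, genes past the test, the 2 with the smallest p and the most abundant. Of the marker lists only sums and the genes needed beside them are given. PGLP1A, PGLP1B, NRT2.1, FIL, PDF1, GL1, TRXF1, TRXF2 and CA2 were named after their values were seen. Some genes that this rule would name are not reported here. Alternatives were another pseudocount, other filters and scalings, a replicate block, each library left out, fragments with limma-voom, and summed copies.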

Additional observations from a re-analysis of the deposited data

How the results depend on the processing

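Directions of the 10 genes held under the alternatives with 1 exception. SBPASE turned to -0.10 without Col-0 replicate 2 and to -0.01 without lux-6 replicate 1, in a range from -0.10 to 0.28 with 1 library left out. The 7 genes lower in both lux-6 libraries, beside 22.8% of all genes tested, became 8 with median-of-ratios scaling, where GAPB joined them. They became 6 without organelle genes, where GAPA1 overlapped at a log2 fold change of -0.01. The other alternatives that kept all libraries left them at 7, and RCA was the 1 higher gene in each. With 1 library left out the median log2 fold change of the 10 ranged from -0.54 to -0.18 against -0.40. The shares of RBCS2B and RBCS3B kept their direction with each library left out and with fragments in place of FPKM (-4.93 and 4.85 percentage points), with ranges of -7.19 to -3.80 and 3.95 to 6.001. The share of RBCS1A ranged from -2.75 to 4.56 percentage points and that of RBCS1B from -1.32 to 0.547, reversed without Col-0 replicate 1 (-2.75 and 0.547) and, for RBCS1B, without lux-6 replicate 2 (0.145).

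Over all genes, 56 passed higher and 1 lower. With a pseudocount of 0.1 or with all genes above 0 no gene passed the limma test either way, with 2316 and 2680 at an unadjusted p under 0.05. A minimum of 5 FPKM gave 97 higher and 3 lower, median-of-ratios scaling 95 and 1, removal of organelle genes 95 and 3, and limma-voom, whose fragment lengths were extended after the data were seen, 92 and 3. With the replicate numbers as a replicate block 332 passed higher and 8 lower, and none of the 10 genes. Deviations of same-numbered libraries correlated at r = -0.0255, and nothing in the labels pairs them. With 1 library left out, 0 to 4244 passed higher and 0 to 2374 lower, the 0 coming from the fits without a lux-6 library, which had 874 and 889 at an unadjusted p under 0.05. The cause of these shifts was not tested. The 117 values compared under alternatives enter each summed value once for every RBCS gene in it, so they are not all values of single genes. Of them 2 turned direction, both of SBPASE. Each RBCS gene had 7014 fragments or more in each library, and each genotype 2 libraries.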
